A study of Arabidopsis thaliana with 24 samples.

Results

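The comparison is that of non-treated *phot1phot2* plants with the non-treated wild type, 3 RNA-Seq libraries against 3 of the 24 libraries of the series, chosen by the genotype and treatment in the sample labels. *phot1phot2* carries mutations in both phototropin genes of *Arabidopsis thaliana*, and the wild type is Col-0 gl1, in which the glabrous1 mutation stops trichome formation. That mutation is shared by all groups, and the sources used here do not name the phototropin alleles. Plants grew in an 8 h photoperiod, and whole rosettes were taken at an age of 4 weeks by the sample labels, while the methods of the study give 3 weeks for the plants used for RNA-Seq. Each replicate pooled at least 4 rosettes, so a level is an average over all rosette tissues, and fewer cells of a type and less RNA per cell cannot be told apart. The double mutant forms a smaller rosette with curled leaves, which is background to every difference described. The other groups drawn on here are *phot1* and *phot2* without treatment, and *phot1phot2* and the wild type after UV-C at 100 mJ cm−2, with 3 libraries each. Total counts per library were 36900017 to 39202117 in *phot1phot2* and 34496078 to 40445085 in the wild type. Values are reads per gene unless CPM is named, which is the count scaled to library size, and no lengths enter, so levels are compared only within a gene.

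Phototropins are plasma membrane kinases that absorb blue light through LOV domains. They drive phototropism, chloroplast movement, stomatal opening, and leaf flattening. The circadian clock is another system set by light, and several of the genes with large differences belong to it. In its simplest form, the MYB factors CCA1 and LHY accumulate around dawn and repress genes with an evening peak by binding the evening element, while PRR proteins repress CCA1 and LHY through the day and the complex of ELF3, ELF4, and LUX acts in the evening. The time of day at which the rosettes were harvested is not given in the sources used here, so a shift of the clock and a difference in harvest time between genotypes cannot be told apart for any cycling gene.

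Across the nuclear genome, *phot1phot2* differed in a small set of genes that rose more often than they fell. Of 20094 protein-coding genes tested with edgeR's quasi-likelihood test, 148 passed a Benjamini-Hochberg adjusted p under 0.01 together with an absolute log2 fold change (log2FC) over 1 (0.737%), of which 102 were higher (0.508%) and 46 lower (0.229%) in *phot1phot2*. A gene is said to have risen or fallen only if it passed both limits. Without the limit on the fold, 1276 genes passed (6.35%), 748 higher (3.72%) and 528 lower (2.63%), and the median log2FC of all tested genes was −0.01. In 144 of the 148 genes the ranges of the mutant and the wild-type libraries did not overlap, as was so for 33.2% of all tested genes. P-values measure the spread between these samples only.

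Transcripts of both mutated genes were still counted in the double mutant, at reduced levels. PHOT1 (chr3:16816721-16824210, plus strand) had 4708, 5355, and 4467 reads in the *phot1phot2* libraries, against 13351, 13221, and 10838 reads in the wild-type libraries (log2FC −1.30, SE 0.08, adjusted p = 8.47e-10). PHOT2 (chr5:23523825-23533111, plus strand) had 9686, 10586, and 10512 reads in the *phot1phot2* libraries, against 18768, 17379, and 16037 reads in the wild-type libraries (log2FC −0.70, SE 0.06, adjusted p = 1.07e-07), a difference under the limit on the fold, and AT5G58150 on the opposite strand shares part of its exons. The groups did not overlap for either gene. Among the 19 tested genes of phototropin signalling, PHOT1 alone passed both limits, against 0.737% of all tested genes, and the median log2FC was 0.10. RPT2, an adaptor of phototropic signalling, had log2FC 0.77 (adjusted p = 3.21e-06), PKS4, a phot1 substrate in phototropism, 0.89 (adjusted p = 1.09e-05), and JAC1, needed for chloroplast accumulation, 0.60 (adjusted p = 3.71e-05). All 3 lay under a fold of 2. The signal transducer NPH3 had log2FC 0.04.

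Sorted by annotated function, regulators of the clock and of flowering, surface receptors, transporters, and enzymes of carbohydrates made up much of the 148 genes. The clock held 9 genes (6 higher, 3 lower) and light signalling and flowering regulators 13 (10 higher, 3 lower). All 15 genes of receptor-like proteins and defence were higher, as were 12 of 13 transporters and channels, 10 of 13 genes of carbohydrates and the cell wall, all 5 of light harvesting and pigments, all 4 kinases of the CIPK and casein kinase families, and both genes of nitrogen metabolism. The 4 genes of chaperones and protein folding were all lower. Enzymes of lipid, hormone, and specialised metabolism divided evenly, with 8 higher and 8 lower, and so did the 16 genes with no known function. These classes were assigned by hand after the genes were known, so their counts describe the set and no more. Of 27 lists of pathway genes, which hold 545 tested genes, 18 contained at least 1 of the 148 genes, and 101 of the 148 genes were in no list. Counts within a list stand beside 0.508% of all tested genes that rose and 0.229% that fell. Counting ignored strand, and reads in exons that overlap another gene were not counted. Such an overlap is with a gene on the other strand for FKF1, BBX8, COL2, BBX25, RVE1, CLCB, ASN1, BT5, BAM9, GOLS1, XTH15, and SBT3.3, while LNK4 and PHT4;3 overlap a gene on the same strand.

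**Figure D1:**
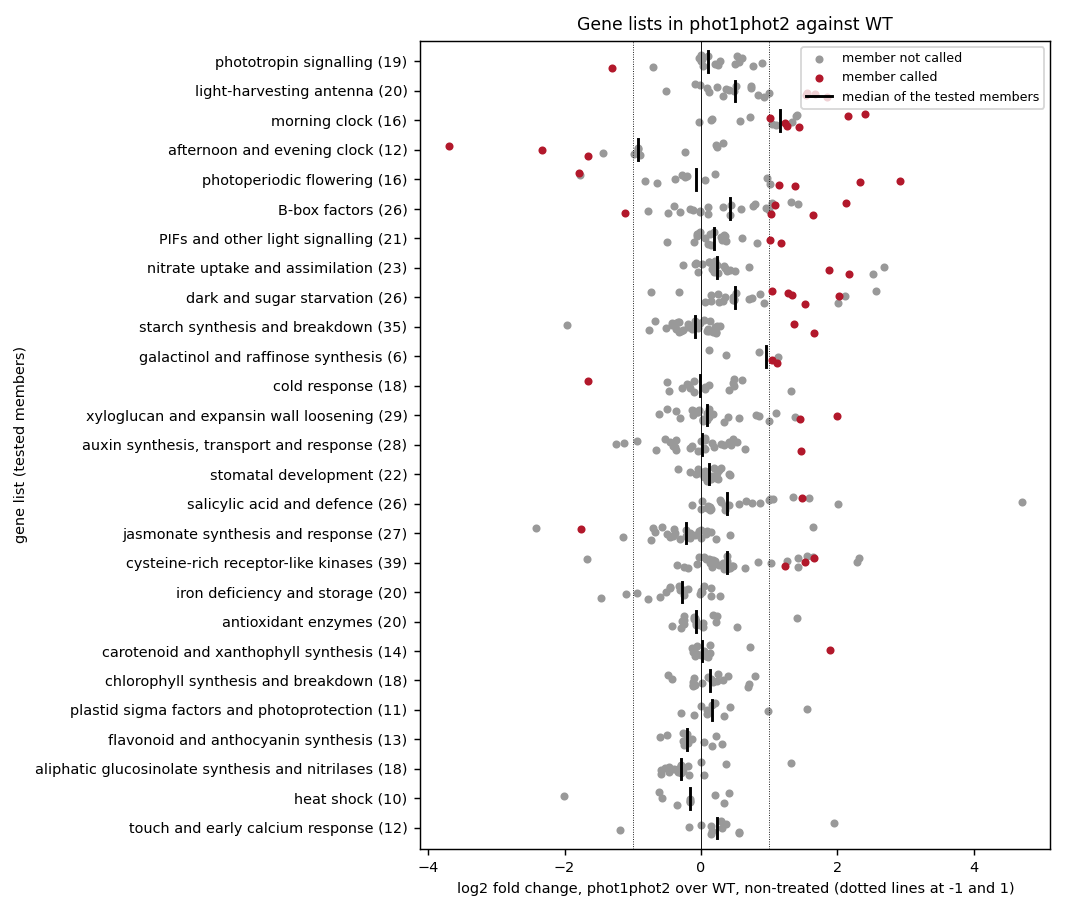
Each point is a gene of 1 of the 27 lists, placed by its log2 fold change in non-treated phot1phot2 over the wild type, with genes past both limits marked; 1 row is 1 list. The evening clock list lies to the left, with a median of −0.92, and the morning clock list to the right, with a median of 1.16, while the median over all tested genes was −0.01.

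Evening genes of the clock were among the genes that fell. Of 12 tested genes in the list of the afternoon and evening clock, 3 fell and none rose, against 0.229% of all tested genes that fell. An adjusted p under 0.01 with a negative log2FC was reached by 7 of the 12, against 2.63% of all tested genes, while 3 had a positive log2FC and the median was −0.92. FKF1, a blue light receptor of the same LOV family that degrades repressors of CO, had 4, 10, and 3 reads in the *phot1phot2* libraries, against 91, 72, and 74 reads in the wild-type libraries (log2FC −3.70, SE 0.49, adjusted p = 2.79e-05). It was nearly silent in all 3 mutant libraries, and its exons overlap those of AT1G68060 on the other strand. ELF4, of the evening complex, had 84, 51, and 44 reads in the *phot1phot2* libraries, against 334, 327, and 287 reads in the wild-type libraries (log2FC −2.34, SE 0.26, adjusted p = 2.96e-06). PRR5, a repressor of CCA1 and LHY, had 221, 153, and 151 reads in the *phot1phot2* libraries, against 616, 565, and 555 reads in the wild-type libraries (log2FC −1.66, SE 0.18, adjusted p = 1.94e-06). In all 3 genes the groups were far apart, and each call was kept in every fit that left out 1 library.

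The other evening genes did not pass both limits. TOC1, the evening partner of CCA1 and LHY, had 1991, 1836, and 1571 reads in the *phot1phot2* libraries, against 4132, 3591, and 3408 reads in the wild-type libraries, and its log2FC of −0.98 (adjusted p = 2.95e-07) stopped just short of the fold limit. LUX, the DNA-binding member of the evening complex, had log2FC −0.93 (adjusted p = 0.00204), its homologue BOA −0.92 (adjusted p = 5.71e-05), and PRR3 −0.90 (adjusted p = 4.69e-05). GI, a partner of FKF1, had too few reads to tell, with 8, 3, and 12 reads in *phot1phot2* and 11, 8, and 45 reads in wild-type plants (log2FC −1.44, adjusted p = 0.0918).

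Several genes outside the clock list fell with them. AT1G07050, a CCT motif protein, had 45, 55, and 53 reads in the *phot1phot2* libraries, against 401, 427, and 406 reads in the wild-type libraries (log2FC −2.95, SE 0.20, adjusted p = 2.51e-09). BBX8, a B-box factor with a CCT domain, had 561, 593, and 609 reads in the *phot1phot2* libraries, against 1399, 1344, and 1227 reads in the wild-type libraries (log2FC −1.11, SE 0.09, adjusted p = 6.27e-08). AT4G16146, annotated as related to a cAMP-regulated phosphoprotein, had 139, 120, and 86 reads in the *phot1phot2* libraries, against 512, 501, and 446 reads in the wild-type libraries (log2FC −2.01, SE 0.18, adjusted p = 1.26e-07). ATC, of the family of floral inhibitors that includes TFL1, had 14, 6, and 13 reads in the *phot1phot2* libraries, against 53, 30, and 37 reads in the wild-type libraries (log2FC −1.78, SE 0.41, adjusted p = 0.00536), and lost its call when either of 2 mutant libraries (replicates 2 and 3) or of 2 wild-type libraries (replicates 1 and 3) was left out. PDC2, a pyruvate decarboxylase of fermentation, fell with log2FC −1.26 (adjusted p = 1.47e-08), and AT4G33980, of no known function in the annotation, with −1.66 (adjusted p = 8.45e-07). AT4G33980 is in the list of cold response genes as COR28. It was the 1 call among the 18 tested genes of that list, against 0.229% of all tested genes that fell. The median log2FC of the list was −0.02.

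The promoters of 4 genes that fell are shown because the evening element, AAATATCT, was common among the genes that fell. Each line is the 250 bases before the annotated start in the TAIR10.1 assembly of RefSeq, 5′ to 3′ on the strand of the gene, with capitals for the evening element (AGATATTT when it lies on the other strand) and for the CCA1 site (AAAAATCT, or AGATTTTT on the other strand). The windows are those of FKF1 (chr1:25508389-25508638, plus strand), PRR5 (chr5:8358547-8358796, minus strand), BBX8 (chr5:19563833-19564082, minus strand), AT4G16146 (chr4:9144584-9144833, minus strand), and, for contrast, LHCB1.1, a gene that rose and carries a CCA1 site but no evening element (chr1:10475970-10476219, minus strand).
FKF1: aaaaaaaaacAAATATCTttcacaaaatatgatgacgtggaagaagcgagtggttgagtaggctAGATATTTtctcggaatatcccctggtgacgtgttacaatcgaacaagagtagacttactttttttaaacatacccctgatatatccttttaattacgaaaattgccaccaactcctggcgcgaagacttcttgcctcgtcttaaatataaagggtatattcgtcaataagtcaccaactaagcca
PRR5: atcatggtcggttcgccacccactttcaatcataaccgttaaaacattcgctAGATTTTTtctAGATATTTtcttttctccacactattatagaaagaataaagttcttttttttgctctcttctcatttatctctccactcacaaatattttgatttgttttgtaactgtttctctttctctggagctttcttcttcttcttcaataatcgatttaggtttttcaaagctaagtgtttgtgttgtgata
BBX8: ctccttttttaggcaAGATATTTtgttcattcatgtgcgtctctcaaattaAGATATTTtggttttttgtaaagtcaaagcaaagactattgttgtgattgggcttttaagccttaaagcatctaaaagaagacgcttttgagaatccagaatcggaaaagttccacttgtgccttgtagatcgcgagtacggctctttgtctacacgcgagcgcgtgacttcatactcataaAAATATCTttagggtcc
AT4G16146: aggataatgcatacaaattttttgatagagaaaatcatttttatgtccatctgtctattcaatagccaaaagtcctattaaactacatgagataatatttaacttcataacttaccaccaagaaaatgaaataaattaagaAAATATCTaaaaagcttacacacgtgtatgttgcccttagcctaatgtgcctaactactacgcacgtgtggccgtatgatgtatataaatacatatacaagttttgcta
LHCB1.1: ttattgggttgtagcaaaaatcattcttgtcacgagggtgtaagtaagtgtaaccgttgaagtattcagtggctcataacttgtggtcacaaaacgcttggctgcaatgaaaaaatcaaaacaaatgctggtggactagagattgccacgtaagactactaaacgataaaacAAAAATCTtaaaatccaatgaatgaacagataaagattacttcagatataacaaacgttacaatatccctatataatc

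Within 250 bases before and 50 bases after the start, searched on both strands, 20 of the 46 genes that fell held an evening element (43.5%), as did 7 of the 102 that rose (6.86%) and 1197 of the 20093 tested genes with a window (5.96%). Among the 7 that rose are RVE7, COL2, and BT1. Besides the 4 genes printed, the 20 include AT4G33980, PDC2, the chaperone-like gene Fes1B, CYP81F3, and EHB1, which restrains phototropic bending and had 25, 19, and 18 reads in *phot1phot2*, against 53, 44, and 39 reads in wild-type plants (log2FC −1.06, adjusted p = 0.00711, a call lost without any 1 of the libraries but mutant replicate 1). The related CCA1 site, AAAAATCT or AACAATCT, was in 5 windows of the genes that fell (10.9%), 7 of those that rose (6.86%), and 2016 of the 20093 windows overall. The G-box CACGTG, to which PIF and HY5 factors bind, had the opposite distribution, with 4 windows of the genes that fell (8.70%), 21 of those that rose (20.6%), and 8.85% of all. ACGTG, the core of the abscisic acid response element, is part of the G-box and was in 39.1% of the windows of fallen genes, 47.1% of those of raised genes, and 27.6% of all. CCGAC, the core of the dehydration response element, was at 15.2%, 15.7%, and 16.1% for the same 3 sets, and GATAAG, the I-box, at 21.7%, 14.7%, and 14.8%. A match is a run of letters and not a measured binding site.

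**Figure D2:**
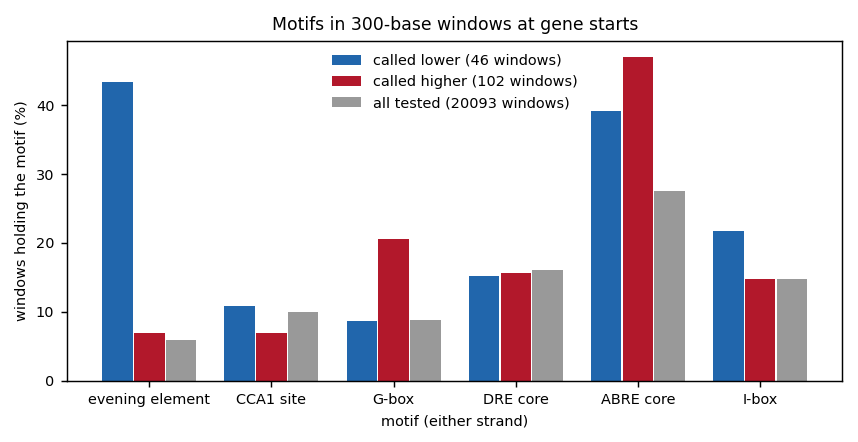
Bars give the percent of promoter windows that hold each of 6 motifs on either strand, from 0, for genes higher in phot1phot2, genes lower in phot1phot2, and all tested genes. The evening element was in 43.5% of the windows of lower genes and 5.96% of all windows, and the G-box in 20.6% of the windows of higher genes and 8.85% of all.

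Morning genes of the clock leaned the other way. Of 16 tested genes in the list of the morning clock, 6 rose and none fell, against 0.508% of all tested genes that rose. A positive log2FC was found in 15 of the 16, against 9609 of all 20094 tested genes, and the list median was 1.16. CCA1 had 15017, 18978, and 23998 reads in the *phot1phot2* libraries, against 5167, 5499, and 11043 reads in the wild-type libraries (log2FC 1.43, SE 0.24, adjusted p = 0.000392), and LHY had 29151, 32887, and 35386 reads in the *phot1phot2* libraries, against 12929, 12435, and 16269 reads in the wild-type libraries (log2FC 1.27, SE 0.11, adjusted p = 1.24e-07). The lowest mutant library exceeded the highest wild-type one for both factors, and in both groups the library of replicate 3 was the highest. The related MYB genes RVE1 and RVE7 rose with log2FC 1.23 (adjusted p = 1.29e-05) and 1.01 (adjusted p = 0.00086), and RVE7 lost its call without mutant replicate 2 or wild-type replicate 1 or 2.

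LNK2 and LNK4, coactivators that work with RVE factors, had the largest log2FC of the 6 morning genes that rose, while LNK1 (log2FC 1.4, adjusted p = 0.0881) and LNK3 (log2FC 1.41, adjusted p = 0.0691) did not pass the test. LNK2 had 18109, 23187, and 25621 reads in the *phot1phot2* libraries, against 4568, 4037, and 6688 reads in the wild-type libraries (log2FC 2.16, SE 0.20, adjusted p = 1.78e-07), and its exons overlap 2 genes on the other strand. LNK4 had 1238, 1475, and 3188 reads in the *phot1phot2* libraries, against 167, 189, and 754 reads in the wild-type libraries (log2FC 2.4, SE 0.47, adjusted p = 0.00155), and its call was lost without wild-type replicate 1 or 2. Both wild-type and mutant libraries of LNK4 were highest in replicate 3, and the lowest mutant library still exceeded the highest wild-type one. PRR7 had 277, 282, and 429 reads in *phot1phot2* and 93, 87, and 309 reads in wild-type plants (log2FC 1.04, adjusted p = 0.0469), and the libraries of the groups overlapped.

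Replicate 3 stood apart for some clock genes in both groups. PRR9, whose transcript peaks shortly after dawn, had 4, 3, and 136 reads in *phot1phot2* and 0, 1, and 64 reads in the wild type, and the difference between the genotypes did not pass the test (log2FC 1.1, adjusted p = 0.522). The part of this difference between replicates in the genes that rose or fell was not tested. Without replicate 3 of either group, a setting chosen after seeing the data, 132 genes were called (94 higher, 38 lower), the log2FC of CCA1 was 1.83 (adjusted p = 1.7e-06), and that of FKF1 was −3.35 (adjusted p = 0.0011). All 6 morning and all 3 evening calls stood in that fit. In a fit of only the 6 libraries compared, which estimates the spread from fewer samples, LHY and LNK2 of the 6 morning genes and all 3 evening genes kept their calls.

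In the list of photoperiodic flowering, 4 Dof genes rose. CDF proteins are Dof factors that repress CO and are themselves degraded with the help of FKF1. CDF1 had 2768, 2903, and 3735 reads in the *phot1phot2* libraries, against 793, 930, and 1922 reads in the wild-type libraries (log2FC 1.38, SE 0.23, adjusted p = 0.000405). CDF2 had 3448, 4188, and 5823 reads in the *phot1phot2* libraries, against 1797, 1824, and 2600 reads in the wild-type libraries (log2FC 1.14, SE 0.17, adjusted p = 8.04e-05), and lost its call without mutant replicate 3 or wild-type replicate 1. AT1G26790, annotated as a Dof-type factor, had 325, 462, and 1344 reads in the *phot1phot2* libraries, against 27, 49, and 205 reads in the wild-type libraries (log2FC 2.92, SE 0.54, adjusted p = 0.00105). AT1G69570, another Dof-type factor, had 44, 38, and 92 reads, against 4, 13, and 18 reads in wild-type plants (log2FC 2.33, adjusted p = 0.00487), a call lost without mutant replicate 3 or wild-type replicate 1 or 2. In these 4 genes the libraries of the groups did not overlap, as was so for 33.2% of all tested genes. CO, the activator of FT, had 95, 78, and 98 reads in *phot1phot2* and 168, 134, and 191 reads in wild-type plants (log2FC −0.81, adjusted p = 0.0092), under the fold limit. FT, the mobile flowering signal, had at most 2 reads in any of the 6 libraries, and a difference was not detectable at this depth. Over the 16 tested genes of photoperiodic flowering, 4 rose and 1 fell, against 0.508% and 0.229% of all tested genes. The list median log2FC was −0.08.

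B-box factors and light signalling genes also changed. Of 26 tested B-box genes, 4 rose and BBX8 fell, against 0.508% and 0.229% of all tested genes. COL2, a CONSTANS-like factor, had 9605, 12060, and 16974 reads in the *phot1phot2* libraries, against 3046, 3673, and 5850 reads in the wild-type libraries (log2FC 1.64, SE 0.21, adjusted p = 1.99e-05). COL5 rose with log2FC 1.03 (adjusted p = 0.000358), and BBX25, a partner of HY5 that dampens its activity, with 1.08 (adjusted p = 0.0018). BBX30, a small B-box protein, had 44, 103, and 207 reads, against 14, 23, and 46 reads in wild-type plants (log2FC 2.13, adjusted p = 0.00529), and its libraries overlapped. COL5 and BBX30 lost their calls without mutant replicate 2 or 3 or wild-type replicate 1 or 2, and BBX25 without mutant replicate 3 or wild-type replicate 1 or 2. Among 21 tested genes of PIFs and other light signalling, PIF5, a growth-promoting factor degraded after light activates phytochrome, had 1991, 2195, and 3033 reads in the *phot1phot2* libraries, against 855, 934, and 1470 reads in the wild-type libraries (log2FC 1.17, SE 0.22, adjusted p = 0.00106). HFR1, an inhibitor of PIF proteins, had 529, 655, and 450 reads in the *phot1phot2* libraries, against 373, 312, and 171 reads in the wild-type libraries (log2FC 1.02, SE 0.21, adjusted p = 0.00286). PIF5 lost its call without wild-type replicate 1, and HFR1 without mutant replicate 2 or wild-type replicate 3. The median of that list was 0.19, and none of its genes fell.

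**Figure D3:**
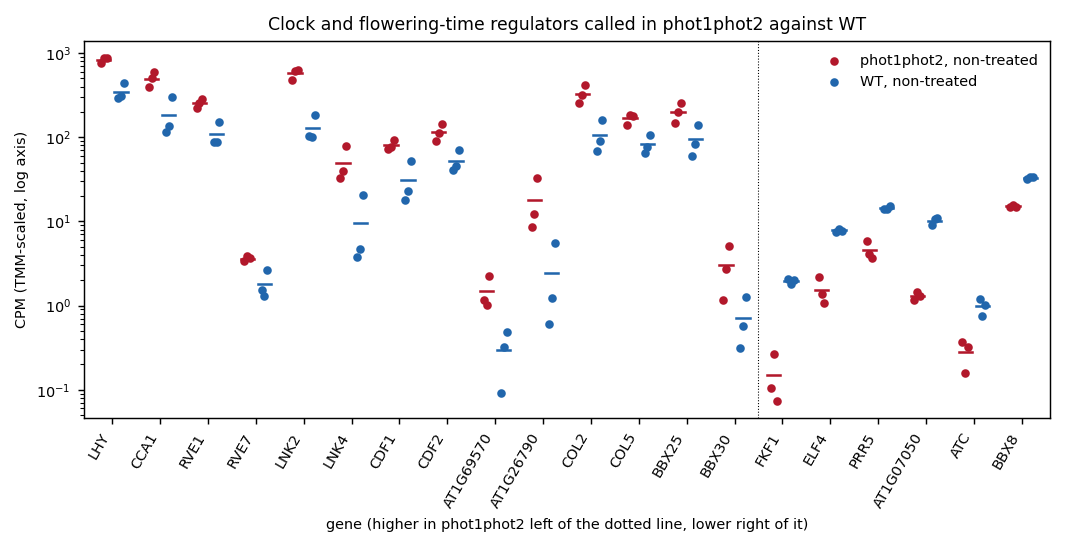
CPM per library on a log axis for 14 clock, flowering, and light signalling genes that were higher and 6 that were lower in non-treated phot1phot2; each point is 1 library, with phot1phot2 left of the wild type for each gene. FKF1 had 4, 10, and 3 reads in phot1phot2 and 91, 72, and 74 reads in the wild type, and BBX30 is a gene whose libraries overlap.

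Genes of the light-harvesting antenna were mostly higher, and 4 of them rose. Of 20 tested genes for the chlorophyll-binding proteins of both photosystems, 15 had an adjusted p under 0.01 with a positive log2FC and none with a negative one, against 3.72% of all genes, and the median log2FC was 0.50. The 4 that passed the fold limit were LHCB1.1, LHCB2.1, LHCB2.2, and LHCB2.4, all of the mobile trimeric antenna of photosystem II. LHCB1.1 had 144955, 154644, and 178358 reads in the *phot1phot2* libraries, against 35399, 43490, and 57310 reads in the wild-type libraries (log2FC 1.84, SE 0.14, adjusted p = 3.04e-08). LHCB2.4 had 16575, 15784, and 24789 reads in the *phot1phot2* libraries, against 5487, 6436, and 7930 reads in the wild-type libraries (log2FC 1.55), and LHCB2.1 and LHCB2.2 had log2FC 1.54 and 1.67. Reads of these families that match several copies were not counted, so the size of each difference is uncertain. LHCB1.3, by contrast, had 880117, 931471, and 946295 reads in the *phot1phot2* libraries, against 785672, 821516, and 695789 reads in the wild-type libraries (log2FC 0.32, adjusted p = 0.00259). LHCB3, of the same trimers, reached log2FC 1.00 (adjusted p = 0.000188) without passing the limit, and the photosystem I antenna genes LHCA1 and LHCA4 had 0.74 and 0.74. In a fit of only the 6 libraries, LHCB1.1 and LHCB2.4 kept their calls.

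Of the pigment genes, 1 rose, against 0.508% of all tested genes. BCH2, which makes zeaxanthin from beta-carotene, had 981, 1063, and 1674 reads in the *phot1phot2* libraries, against 240, 280, and 496 reads in the wild-type libraries (log2FC 1.90, SE 0.23, adjusted p = 9.04e-06), the 1 gene of 14 in carotenoid synthesis to rise, and ZEP, which converts zeaxanthin to violaxanthin, had log2FC 0.72 (adjusted p = 7.03e-06). The exons of BCH2 overlap those of AT5G52560, on the opposite strand. Of 18 tested genes of chlorophyll synthesis and breakdown none was called. An adjusted p under 0.01 was reached with a positive log2FC by 6 (3.72% of all tested genes) and with a negative one by 2 (2.63%). HEMA1, which controls the entry into tetrapyrrole synthesis, had 28960, 29358, and 30721 reads in the *phot1phot2* libraries, against 20842, 19620, and 17269 reads in the wild-type libraries (log2FC 0.69, SE 0.06, adjusted p = 5.29e-08). CHLH, a subunit of magnesium chelatase, had log2FC 0.70 (adjusted p = 2.53e-06), and CAO, which makes chlorophyll b, 0.79 (adjusted p = 1.58e-06). For HEMA1 the spread within groups was small, at 766 ± 14.8 CPM in *phot1phot2* and 476 ± 10.2 CPM in the wild type (SD, n = 3 each).

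Nitrate reductase was uneven between the mutant libraries. NIA2, the major nitrate reductase of the leaf, had 32267, 62073, and 17822 reads in the *phot1phot2* libraries, against 6737, 11463, and 8003 reads in the wild-type libraries (log2FC 2.17, SE 0.42, adjusted p = 0.0016), so that mutant replicate 2 was the highest and replicate 3 the lowest. Its call was lost without mutant replicate 2 or wild-type replicate 1. The second nitrate reductase NIA1 had 1612, 3992, and 414 reads in *phot1phot2* and 188, 510, and 402 reads in wild-type plants (log2FC 2.52, adjusted p = 0.0137), and the groups overlapped, with mutant replicate 3 inside the wild-type range. CLCB, an anion channel of the family that stores nitrate in the vacuole, was even, with 454, 565, and 651 reads in the *phot1phot2* libraries, against 148, 149, and 174 reads in the wild-type libraries (log2FC 1.88, SE 0.16, adjusted p = 1.16e-07). NIR1, nitrite reductase, had log2FC 0.25 (adjusted p = 0.36). Over 23 tested genes of nitrate uptake and assimilation 2 rose, against 0.508% of all tested genes, none fell, and the median log2FC was 0.24.

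The same libraries ordered other genes. BT1, a BTB and TAZ domain protein, had 1564, 2796, and 843 reads in the *phot1phot2* libraries, against 523, 446, and 384 reads in the wild-type libraries (log2FC 2.03, SE 0.37, adjusted p = 0.000899), and lost its call without mutant replicate 2. BT2, its close relative and a regulator of nitrogen use, had 4385, 7961, and 528 reads in *phot1phot2* and 1095, 1591, and 510 reads in wild-type plants (log2FC 2.12, adjusted p = 0.027). BT5 was more even, with 1827, 2653, and 2479 reads in the *phot1phot2* libraries, against 1299, 877, and 738 reads in the wild-type libraries (log2FC 1.33, SE 0.16, adjusted p = 7.8e-06). SAG21, a late embryogenesis abundant protein induced by oxidative stress and senescence, had 6007, 9953, and 1263 reads in the *phot1phot2* libraries, against 1004, 796, and 464 reads in the wild-type libraries (log2FC 3.04, SE 0.46, adjusted p = 0.000139), and its mutant replicate 3 was again the lowest of its group. CIPK1, a kinase of calcium signalling, followed the order with 6169, 9913, and 5202 reads, against 4125, 4161, and 2810 reads in wild-type plants (log2FC 1.02, adjusted p = 0.000875), and its call was lost without mutant replicate 2 or wild-type replicate 3.

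Of 26 tested genes induced by darkness and low sugar, 5 rose and none fell, against 0.508% of all tested genes that rose, and 24 had a positive log2FC, with a median of 0.51. An adjusted p under 0.01 was reached with a positive log2FC by 13 of them (3.72% of all tested genes) and with a negative one by 1 (2.63% of all tested genes). BT1 and BT5 were 2 of the 5. ASN1, asparagine synthetase and a classic dark-induced gene, had 6254, 5626, and 8618 reads in the *phot1phot2* libraries, against 2975, 2218, and 2248 reads in the wild-type libraries (log2FC 1.52, SE 0.13, adjusted p = 6.69e-08). BXL1, a wall beta-xylosidase that sugar represses, had 9602, 11310, and 8826 reads in the *phot1phot2* libraries, against 5067, 4628, and 3299 reads in the wild-type libraries (log2FC 1.27, SE 0.14, adjusted p = 2.03e-06). XTH24, a xyloglucan-modifying enzyme, rose with log2FC 1.03 (adjusted p = 0.00191), a call lost without mutant replicate 1 or wild-type replicate 3. DIN1 had log2FC 0.93 (adjusted p = 3.77e-05), and the hexose transporter STP1 0.87 (adjusted p = 3.04e-05), while DIN10 had 0.15 (adjusted p = 0.631). ASN1, DIN1, and STP1 had no overlap between groups, as was so for 33.2% of all tested genes, whereas the libraries of DIN10 overlapped.

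Starch genes divided by enzyme. GBSS1, which makes amylose and is itself under clock control, had 4697, 5163, and 7603 reads in the *phot1phot2* libraries, against 1581, 1593, and 2440 reads in the wild-type libraries (log2FC 1.66, SE 0.19, adjusted p = 4.58e-06), and BAM9, annotated as a beta-amylase, had 7415, 7947, and 12843 reads in the *phot1phot2* libraries, against 3664, 3307, and 4272 reads in the wild-type libraries (log2FC 1.36, SE 0.14, adjusted p = 6.39e-07). The other 33 tested genes of starch metabolism did not pass the limits, so 2 of 35 rose, against 0.508% of all tested genes. An adjusted p under 0.01 with a negative log2FC was reached by 8 of the 35, against 2.63% of all tested genes. Those with negative values include enzymes of breakdown: plastid phosphorylase PHS1 had log2FC −0.67 (adjusted p = 2.93e-05), the glucan phosphatase SEX4 −0.36 (adjusted p = 0.00312), and the disproportionating enzyme DPE2 −0.33 (adjusted p = 0.00109). The list median was −0.09. Galactinol synthases, which start the path to raffinose, rose: GOLS1 had 519, 348, and 411 reads, against 241, 145, and 229 reads in wild-type plants (log2FC 1.11, adjusted p = 0.00352), and GOLS2 had 191, 215, and 175 reads, against 111, 91, and 92 reads (log2FC 1.05, adjusted p = 0.000779). All 6 tested genes of that path had a positive log2FC. GOLS1 lost its call without mutant replicate 1 or wild-type replicate 1 or 2, and GOLS2 without mutant replicate 2 or wild-type replicate 2.

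Transporters made up 13 of the 148 genes, and the largest rise among genes with reads in every wild-type library was 1 of them. AT3G09450, annotated as a fusaric acid resistance protein, had 321, 516, and 729 reads in the *phot1phot2* libraries, against 24, 33, and 37 reads in the wild-type libraries (log2FC 4.1, SE 0.25, adjusted p = 4.69e-10). SWEET2, a vacuolar sugar transporter, rose with log2FC 1.11 (adjusted p = 2.44e-06), a call lost without wild-type replicate 1. G3Pp1, a putative glycerol-3-phosphate transporter, had 2381, 3177, and 4476 reads in the *phot1phot2* libraries, against 1131, 1024, and 1268 reads in the wild-type libraries (log2FC 1.59, SE 0.17, adjusted p = 1.54e-06). The inositol transporter INT2 had 21, 22, and 36 reads, against 9, 10, and 10 reads in wild-type plants (log2FC 1.48, adjusted p = 0.00568), and lost its call without mutant replicate 2 or 3 or any 1 of the wild-type libraries.

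Other large rises had no common annotation. AT3G55580, an RCC1 family protein, had 437, 604, and 657 reads in the *phot1phot2* libraries, against 73, 71, and 138 reads in the wild-type libraries (log2FC 2.63, SE 0.24, adjusted p = 1.58e-07). AT3G54510, annotated as responsive to dehydration, had 75, 101, and 102 reads in the *phot1phot2* libraries, against 18, 8, and 11 reads in the wild-type libraries (log2FC 2.96, SE 0.27, adjusted p = 1.79e-07), and lies next to LNK2 on chromosome 3, on the other strand. CIPK20, a kinase of calcium signalling, had 87, 127, and 307 reads in the *phot1phot2* libraries, against 4, 8, and 69 reads in the wild-type libraries (log2FC 2.70, SE 0.61, adjusted p = 0.0048), with its replicate 3 highest in both groups, and lost its call without mutant replicate 3 or wild-type replicate 1 or 2. M17, a late embryogenesis abundant protein, had 20, 13, and 4 reads, against 1, 1, and 0 reads in the wild type, a ratio of 19.3 with an exact 95% counting interval of 4.98 to 165, and its call was lost without mutant replicate 1 or 2 or any 1 of the wild-type libraries. AT5G39580, a peroxidase family protein, had 28, 28, and 32 reads, against 9, 6, and 2 reads (log2FC 2.4, adjusted p = 0.00732), and lost its call without any 1 of the 6 libraries.

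Wall and auxin genes changed singly. XTH25, of the enzymes that cut and rejoin xyloglucan, had 81, 81, and 71 reads in *phot1phot2*, against 32, 12, and 17 reads in wild-type plants (log2FC 2.00, adjusted p = 0.000949). XTH15, of the same family, had 111, 50, and 60 reads, against 26, 32, and 26 reads in wild-type plants (log2FC 1.45, adjusted p = 0.00765). They were the only rises among the 29 tested genes in the list of xyloglucan modification and expansins, whose median was 0.09. XTH24, which also rose, was counted in the list of darkness and low sugar instead. XTH15 lost its call without mutant replicate 1 or any 1 of the wild-type libraries. CSLG2, a cellulose synthase-like gene, had 73, 37, and 26 reads, against 14, 8, and 6 reads in wild-type plants (log2FC 2.34, adjusted p = 0.00246), a call lost without mutant replicate 1 or wild-type replicate 2 or 3. YUC8, an enzyme of auxin synthesis induced by PIF factors, had 35, 40, and 45 reads, against 15, 17, and 13 reads in wild-type plants (log2FC 1.46, adjusted p = 0.00341), and its call was lost without mutant replicate 2 or 3 or any 1 of the wild-type libraries. It was the 1 call among 28 tested auxin genes, against 0.508% of all tested genes that rose, and the list median was 0.02. The early response genes IAA19 and IAA29 had log2FC −0.45 (adjusted p = 0.0541) and −0.01 (adjusted p = 0.995).

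Surface receptors rose at low read numbers. AT5G37450, a leucine-rich repeat kinase, had 20, 27, and 21 reads, against 2, 1, and 1 reads in the wild type, and kept its call in every fit that left out 1 library (adjusted p = 0.000154). Of 39 tested cysteine-rich receptor-like kinases, 3 rose, against 0.508% of all tested genes, and none fell. A positive log2FC was found in 33 of the 39, and the median was 0.38. CRK24 had 51, 45, and 67 reads, against 26, 22, and 11 reads in the wild type (log2FC 1.52, SE 0.26, adjusted p = 0.000488). CRK12 had 106, 95, and 122 reads, against 35, 68, and 40 reads (log2FC 1.23, adjusted p = 0.00535), and lost its call without any 1 of the mutant libraries or wild-type replicate 1 or 3. CRK36 had 312, 71, and 172 reads, against 65, 56, and 61 reads (log2FC 1.66, adjusted p = 0.00641), and lost its call without mutant replicate 1 or any 1 of the wild-type libraries. Without replicate 3 of both groups none of the 3 was called.

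Defence hormone lists gave single calls in opposite directions. Among 26 tested genes of salicylic acid and defence, SBT3.3, a subtilase of immune priming, rose at few reads per library (log2FC 1.48, adjusted p = 0.00975) and lost its call without any 1 of the 6 libraries. WRKY70 had 775, 689, and 582 reads in the *phot1phot2* libraries, against 370, 464, and 246 reads in the wild-type libraries (log2FC 0.99, adjusted p = 0.0023), just under the fold limit, and PR1, the usual marker of the pathway, had 253, 76, and 239 reads in *phot1phot2* and 198, 111, and 22 reads in wild-type plants (log2FC 0.87, adjusted p = 0.545). The list had 24 positive values and a median of 0.39. Of 27 tested jasmonate genes, 21 had a negative log2FC and the median was −0.22, but VSP1 alone fell. VSP1, a vegetative storage protein, had 129, 55, and 149 reads in the *phot1phot2* libraries, against 547, 329, and 310 reads in the wild-type libraries (log2FC −1.76, SE 0.34, adjusted p = 0.00145), a call lost without mutant replicate 2. VSP2 had log2FC −0.70 (adjusted p = 0.112) and LOX2, which starts jasmonate synthesis in the leaf, −0.73 (adjusted p = 0.0853).

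The 4 genes of protein folding that fell were AT2G21130, a cyclophilin, with 165, 89, and 124 reads in the *phot1phot2* libraries, against 398, 371, and 355 reads in the wild-type libraries (log2FC −1.51, SE 0.19, adjusted p = 1.31e-05), the DNAJ genes AT5G23240 (log2FC −1.77) and AT1G56300 (−1.05), and Fes1B (−1.05). AT5G23240 lost its call without mutant replicate 1 or 2 or wild-type replicate 1, AT1G56300 without mutant or wild-type replicate 3, and Fes1B without mutant replicate 3. None of them belongs to the heat shock list, of whose 10 tested genes none was called. Among the largest falls, CER4, an enzyme of wax alcohol synthesis, had 7, 5, and 14 reads, against 53, 42, and 29 reads in wild-type plants (log2FC −2.17, adjusted p = 0.00578), and AT5G37950, a glycosyltransferase, 16, 8, and 19 reads, against 95, 73, and 43 reads (log2FC −2.21, adjusted p = 0.00662). CER4 lost its call without mutant or wild-type replicate 1 or 2, and AT5G37950 without any 1 of the libraries but wild-type replicate 3. GAMT2, which methylates gibberellins, had 2, 0, and 0 reads, against 14, 8, and 21 reads, so the ratio of the wild type to *phot1phot2* was 20.6 (exact 95% counting interval 5.37 to 176). It lost its call without mutant replicate 2 or 3 or wild-type replicate 3. AT3G33528, on chromosome 3, had 3, 4, and 2 reads, against 24, 14, and 13 reads in wild-type plants (log2FC −2.37, adjusted p = 0.00359), a call lost without any 1 of the mutant libraries or wild-type replicate 1.

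In 9 of the 27 lists no gene was called by edgeR's quasi-likelihood test: stomatal development (22 tested genes), iron, antioxidant enzymes, chlorophyll, plastid sigma factors and photoprotection, flavonoids, aliphatic glucosinolates, heat shock, and touch. Of their 144 tested genes, 59 had an unadjusted p under 0.05, 8 were called by the likelihood ratio test, 1 by DESeq2, and 1 in the fit of only the 6 libraries, which was NIT2, a nitrilase (log2FC 1.32, adjusted p = 0.0203 in the fit of 24 libraries). In stomatal development these counts were 5, 0, and 0, with log2FC between −0.33 and 0.43. In antioxidant enzymes 11 of 20 had an unadjusted p under 0.05, and in glucosinolate synthesis 12 of 18, where 15 had a negative log2FC and the median was −0.29. An adjusted p under 0.01 was reached by 4 of these 20 and 1 of these 18, against 6.35% of all tested genes. The share of all tested genes with an unadjusted p under 0.05 was not counted, so counts at that limit have no background here. SIG5, a plastid sigma factor induced by blue light, had log2FC 0.98 (adjusted p = 0.000504).

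Summed levels of mesophyll and trichome markers overlapped between the groups, and those of the other 4 cell types checked did not. Of single tested genes, 33.2% had no overlap between the groups. Summed levels of 3 mesophyll genes were 32872 to 32999 CPM in the *phot1phot2* libraries and 31228 to 35979 CPM in the wild-type libraries. Summed over 6 genes, guard cell markers were at 89.7 to 110 CPM in *phot1phot2* and 75.2 to 82.2 CPM in the wild type, with log2FC between −0.01 and 0.72. The 4 phloem genes summed to 175 to 200 CPM in *phot1phot2* and 240 to 274 CPM in the wild type, with log2FC between −0.59 and −0.32, and trichome genes to 3.80 to 5.85 CPM and 3.38 to 4.88 CPM. Genes of the shoot meristem and flower summed to 9.12 to 9.89 CPM in *phot1phot2* and 10.4 to 13.4 CPM in the wild type, and root genes to 413 to 470 CPM and 326 to 396 CPM, although 2 of the 4 root markers had no reads in any of these libraries. Only 1 root marker had enough reads to be tested (log2FC 0.28). No marker was called by edgeR's quasi-likelihood test and none by DESeq2, while AP1 alone was called by the likelihood ratio test. An unadjusted p under 0.05 was found in 9 of 20 tested markers, a count with no share over all tested genes beside it. The part of cell type shares in the results was not tested.

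Some genes near PHOT1 were silent in the double mutant. Crosses that carry a mutant allele into a line bring along linked DNA, so each gene was placed by its distance from PHOT1 and PHOT2, although the part of linked DNA in the differences was not tested. AT3G42860, a zinc knuckle protein, had no reads in any *phot1phot2* library, against 95, 108, and 90 reads in the wild type, at least 31.3-fold lower with a floor of 3 reads per library. AT3G46990, whose exons overlap AT3G47000 on the other strand, was at least 21.4-fold lower (79, 54, and 68 reads in the wild type), AT3G42850 at least 4.31-fold, and AT3G44580 at least 3.78-fold, each with 0 reads in all 3 mutant libraries. In the opposite direction, AT3G45760 had 4, 8, and 6 reads in *phot1phot2* and 0 in every wild-type library, at least 2.08-fold higher, a call lost without mutant replicate 2 or any 1 of the wild-type libraries. All 5 lie within 2 Mb of PHOT1, and the 4 silent genes had no reads in non-treated *phot1* either.

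Within 2 Mb of PHOT1, PHOT1 left out, 9 of 507 tested genes were called (1.78%), and within 2 Mb of PHOT2 10 of 873 (1.15%), against 128 of 18712 elsewhere (0.684%). By chromosome the share ran between 0.684% (21 of 3072 genes on chromosome 4) and 0.794% (24 of 3022 genes on chromosome 2). The window of PHOT1 also holds ASN1, G3Pp1, and PHT4;3, a phosphate transporter with 1930, 2281, and 1873 reads in the *phot1phot2* libraries, against 1033, 977, and 960 reads in the wild-type libraries (log2FC 1.1, SE 0.10, adjusted p = 1.29e-07), which lost its call without mutant replicate 2. That of PHOT2 holds CDF1, COL5, BT1, XTH25, PDC2, and GAMT2, and ckl12, a casein kinase I-like gene that shared the lowest adjusted p of all tested genes with ARP9. ckl12 had 5565, 6675, and 5055 reads in the *phot1phot2* libraries, against 1111, 1034, and 978 reads in the wild-type libraries (log2FC 2.53, SE 0.10, adjusted p = 1.55e-13). Its level in *phot1* was 25.8 ± 0.622 CPM and in *phot2* 142 ± 6.46 CPM, against 149 ± 27 CPM in *phot1phot2* and 25.8 ± 0.685 CPM in the wild type (SD, n = 3 each). The level in *phot1* was that of the wild type, and the level in *phot2* that of *phot1phot2*.

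**Figure D4:**
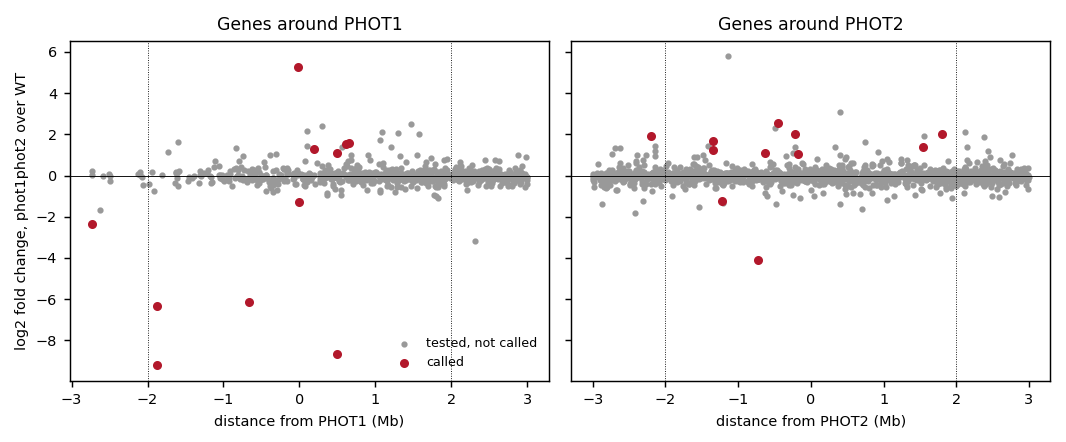
Log2 fold change of each tested gene in non-treated phot1phot2 over the wild type against its distance in Mb from PHOT1 and from PHOT2, out to 3 Mb on either side; called genes are marked. Within 2 Mb, 9 of 507 genes near PHOT1 and 10 of 873 near PHOT2 were called, and the lowest points near PHOT1 are genes with no reads in phot1phot2.

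Outside both windows, ARP9 and AT1G45332 had the lowest adjusted p. ARP9, an actin-related protein on chromosome 5, had 691, 685, and 679 reads in the *phot1phot2* libraries, against 2459, 2228, and 2228 reads in the wild-type libraries (log2FC −1.69, SE 0.07, adjusted p = 1.55e-13), and its log2FC was −1.62 in *phot1* and −1.31 in *phot2*. AT1G45332, annotated as a translation elongation factor, had 432, 376, and 428 reads in the *phot1phot2* libraries, against 1427, 1302, and 1126 reads in the wild-type libraries (log2FC −1.58, SE 0.08, adjusted p = 3.99e-11), with −1.49 in *phot1* and −0.02 in *phot2*. The groups did not overlap for either gene. The single mutants share the wild-type libraries with *phot1phot2*, so these values are set side by side.

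Against the single mutants, *phot1phot2* differed in few genes. Relative to non-treated *phot1*, 15 genes were called (0.0746%), 8 higher and 7 lower, and relative to non-treated *phot2*, 48 (0.239%), 20 higher and 28 lower. Of the clock, LNK2 was higher than in *phot1* (log2FC 1.19, adjusted p = 0.00153), and PRR5 (−1.21, adjusted p = 0.00111) and ELF4 (−1.55, adjusted p = 0.00257) were lower. AT1G07050 (−1.85) and AT4G16146 (−1.55) were lower than in *phot1* as well, and AT3G09450 (2.05), CLCB (1.21), AT3G54510 (1.8), and AT3G55580 (1.37) higher. None of LNK2, PRR5, and ELF4 was called against *phot2*, where their log2FC was 0.51, −0.30, and −0.80. BT1 and BT5 were higher than in *phot2* (log2FC 2.24 and 1.14, adjusted p = 0.00235 and 0.000313), and so was AT3G09450 (1.12, adjusted p = 0.003).

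Mean levels in the 4 genotypes show where the double mutant stood for the clock genes. FKF1 was at 0.148 ± 0.104 CPM in *phot1phot2*, 0.289 ± 0.119 CPM in *phot2*, 0.678 ± 0.056 CPM in *phot1*, and 1.95 ± 0.144 CPM in the wild type (SD, n = 3 each). LHY was at 837 ± 63 CPM in *phot1phot2*, 685 ± 60 CPM in *phot2*, 525 ± 54.9 CPM in *phot1*, and 348 ± 81.4 CPM in the wild type. AT3G09450 was at 13.4 ± 4.77, 6.17 ± 1.04, 3.23 ± 0.338, and 0.789 ± 0.231 CPM in the same order. In all 3 genes the order of means ran from the double mutant through *phot2* and *phot1* to the wild type. FKF1 was not called in the double mutant against *phot2* (log2FC −0.97, adjusted p = 0.413) or *phot1* (log2FC −2.17, adjusted p = 0.0309). LHY was called against neither, with log2FC 0.29 against *phot2* (adjusted p = 0.158) and 0.67 against *phot1* (adjusted p = 0.00178), which missed only the fold limit.

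Departure of *phot1phot2* from the sum of the single mutant differences, on the log2 scale, was called for 12 genes (0.0597%), 6 in each direction, and 1 of them, ARP9, was among the 148 (departure 1.24, adjusted p = 1.35e-07). LTP3, a lipid transfer protein, showed the largest, at −5.61 (adjusted p = 0.00116): its log2FC against the wild type was 0.98 in *phot1phot2*, 3.08 in *phot1*, and 3.51 in *phot2*. ERO2, an oxidoreductase of disulfide formation, had a departure of 1.35, with log2FC 0.19 in *phot1phot2*, 0.03 in *phot1*, and −1.19 in *phot2*. Of the clock genes, the departure did not pass the test at −0.30 (SE 0.16) in LHY, −0.46 (SE 0.27) in LNK2, 0.16 (SE 0.25) in PRR5, and −0.01 (SE 0.32) in ELF4.

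Rosettes taken 30 min after UV-C are separate libraries in which the same genotypes can be compared again. There 644 genes were called between *phot1phot2* and the wild type, 333 higher (1.66%) and 311 lower (1.55%), and 47 of the 148 genes called without treatment were called in the same direction, which is 31.8% of the genes called without treatment and 7.30% of those called after UV-C. The time of day of this harvest is not given either. Of the 102 genes that were higher without treatment, 90 had a positive log2FC after UV-C and 31 were called higher again. Of the 46 lower genes, 36 had a negative log2FC and 16 were called lower again. Median log2FC over the 102 genes was 0.83 after UV-C and 1.38 without treatment, and over the 46 genes −0.92 and −1.54. In the values without treatment, the sign and a size over 1 are fixed by the choice of genes. Smaller values in other libraries are favoured by that choice, so the smaller medians are not read as an effect of UV-C.

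Genes of several groups kept the difference after UV-C. CLCB had log2FC 1.8 after UV-C and 1.88 without treatment, ASN1 1.48 and 1.52, BCH2 1.08 and 1.90, RVE7 1.41 and 1.01, PIF5 1.27 and 1.17, BBX8 −1.31 and −1.11, and VSP1 −1.71 and −1.76. COL5 reached 405 ± 21.9 CPM in *phot1phot2* and 144 ± 12.3 CPM in the wild type after UV-C (log2FC 1.49, adjusted p = 1.13e-06). SIS, annotated as a RING-type ubiquitin ligase, was at 101 ± 15.3 CPM and 8.63 ± 1.69 CPM after UV-C (log2FC 3.55), with 1.2 without treatment.

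For several core clock genes the difference did not pass the test after UV-C. There, LHY had log2FC −0.12 (adjusted p = 0.412), CCA1 0.28 (adjusted p = 0.376), FKF1 0.12 (adjusted p = 0.938), and ELF4 0.13 (adjusted p = 0.902). FKF1 and ELF4 were low in both genotypes there, at 0.124 ± 0.109 and 0.251 ± 0.122 CPM in *phot1phot2* and 0.115 ± 0.0704 and 0.221 ± 0.146 CPM in the wild type. Other clock genes still differed after UV-C. Of 16 tested morning genes, 3 were called higher and 1 lower, and the list median was 0.76. Of 12 tested afternoon and evening genes, 2 were called lower and none higher, and the list median was 0.08. Over all tested genes, 1.66% were called higher and 1.55% lower. A test of whether UV-C acted differently in the genotypes was called for 305 genes (1.52%), 29 of them among the 148, and included LHY (−1.39, adjusted p = 4.4e-06) and PRR5 (2.59, adjusted p = 3.36e-05). It was 3.82 in FKF1 (adjusted p = 0.0342) and 2.47 in ELF4 (adjusted p = 0.0325), outside the limit. XTH15 and XTH25 turned round, with log2FC −2.28 and −1.42 after UV-C, and so did AT3G62550, AT4G30650, and AT5G43440, which were lower in *phot1phot2* without treatment and higher after UV-C.

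**Figure D5:**
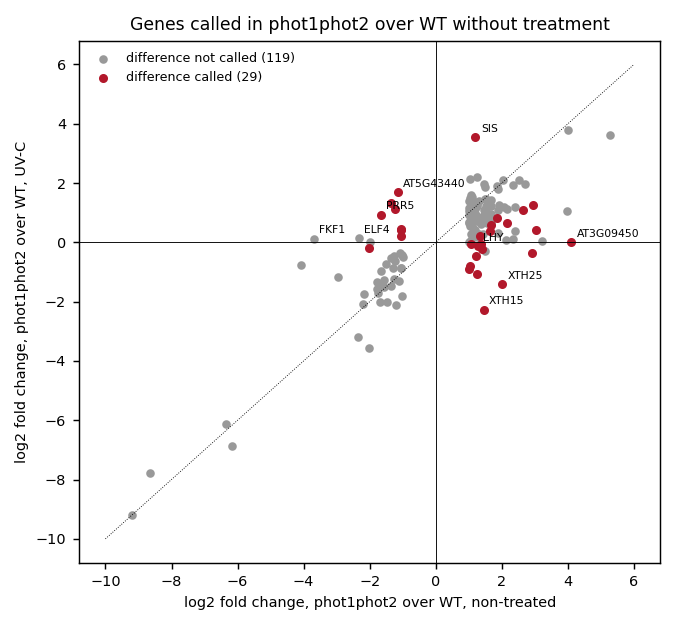
Log2 fold change of phot1phot2 over the wild type after UV-C against that without treatment for the 148 genes called without treatment; genes with a called difference of the UV-C effect are marked. Of the 102 higher genes 90 stayed above 0 after UV-C and of the 46 lower genes 36 stayed below 0, and 29 genes have a called difference.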

How the data were processed

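RNA-Seq counts from 24 whole-rosette libraries of 8 groups (4 genotypes, with and without UV-C, 3 replicates each) were used. The authors aligned reads of poly-A RNA with STAR 2.5.2b and deposited raw counts per gene from featureCounts (Subread 1.6.2) with Araport11 annotation, over exons and without options for strand or multi-mapping reads. Reads of near-identical genes were therefore not counted, nor were reads in exons that overlap another gene on either strand. All 24 count columns were mapped to samples, and no column was left without one.

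Gene types, products, and coordinates came from RefSeq (TAIR10.1), matched by locus identifier. The filter kept 21366 genes that reached 5 reads in 6 or more libraries, of which 20094 were protein-coding and were tested, while 142 had no annotated type. Counts were scaled by TMM and fitted in 1 model of the 8 groups with edgeR 4.0.16 (R 4.3.3), with the quasi-likelihood F-test, Benjamini-Hochberg adjustment over all tested genes, and calls at an adjusted p below 0.01 with a fold of over 1 on the log2 scale in either direction. The standard error was taken as the log2 fold change over the square root of F. CPM used the scaled library sizes. Groups without reads were set to a floor of 3 reads per library, and intervals on ratios of reads cover counting error only. Alternatives were edgeR's likelihood ratio test with robust dispersions, glmTreat, DESeq2 1.42.0, other scaling and filters, all gene types, the replicate number as a block, the 6 libraries alone, and leaving out libraries. In simulated counts with 200 changed genes, 71 of 75 with an absolute log2 fold change of 1.5 were called in this comparison. So were 65 of 71 with 2 and 54 of 54 with 3, and no unchanged gene was called. Each library was drawn independently at the fitted dispersions, without a deviation shared by replicate number. Changed genes had a mean over 5 reads in the wild type. Recovery at smaller folds or fewer reads, and calls under shared deviations, are therefore not covered.

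Named genes were both phototropin genes, the 12 largest rises and the 12 largest falls with non-overlapping libraries, and called members of the lists, with some uncalled core members. EHB1, AT3G62550, AT4G30650, AT5G43440, SIS, ARP9, and the genes of the comparison with the single mutants, among others outside that rule, were chosen after their values were seen. The members and lists were chosen with earlier results of these data known.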

Additional observations from a re-analysis of the deposited data

Results flagged for a closer look

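For 29 of the 148 genes the effect of UV-C in *phot1phot2* differed from that in the wild type by the interaction test of edgeR, with the same limits as the other calls, against 1.52% of all tested genes. Values are the effect in *phot1phot2* minus that in the wild type on the log2 scale, so a negative value means that the difference of *phot1phot2* from the wild type was more negative after UV-C than without treatment. Because the 148 genes were chosen on the non-treated libraries that also enter this test, a value opposite in sign to their difference is favoured by the choice.

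Among genes that were higher without treatment, the value was −4.09 in AT3G09450, −3.73 in XTH15, −3.42 in XTH25, −3.28 in AT1G26790, −2.61 in SAG21, −2.32 in AT2G23690, −1.93 in AT5G03120, −1.82 in AT2G34340, −1.71 in AT3G54510, −1.69 in CRK12, and −1.64 in AT1G05675. In 9 more of the higher genes it was −1.55 in AT3G55580, −1.53 in LNK2, −1.42 in BAM9, −1.39 in LHY, −1.26 in COL2, −1.12 in RTFL17, −1.10 in BT5, −1.09 in AT2G41250, and −1.01 in LHCB1.1. SIS, with 2.35, was the 1 higher gene of the 29 whose difference grew after UV-C. Among genes that were lower without treatment, it was 1.25 in Fes1B, 1.48 in AT1G56300, 1.5 in AT2G03310, 1.82 in AT4G16146, 2.37 in AT3G62550, 2.59 in PRR5, 2.68 in AT4G30650, and 2.85 in AT5G43440.

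Genes other than protein-coding ones were outside the main comparison. With all gene types in the fit, 15 of 1272 such genes were called (1.18%), against 160 of 21366 genes of all types (0.749%). Of the 15, 10 were higher and 5 lower in *phot1phot2*. The lncRNA AT2G05705 had 39, 46, and 53 reads in *phot1phot2*, against 0, 1, and 0 reads in the wild type, and the ncRNA AT2G01422 had 9, 8, and 74 reads, against 610, 411, and 264 reads. The pseudogenes AT3G28915 and AT5G28335 fell, with 7, 14, and 9 reads and 3, 4, and 1 reads in *phot1phot2*, against 160, 101, and 119 reads and 84, 40, and 32 reads in the wild type.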

How the results depend on the processing

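The 148 genes called, 102 higher and 46 lower, changed by more than 1.5 times under 3 alternatives. The likelihood ratio test called 279 genes (190 higher, 89 lower), the fit of the 6 libraries alone 75 (46 higher, 29 lower), and glmTreat, which tests against the fold limit itself, 16 (8 higher, 8 lower), so that the higher share was 68.9% by the quasi-likelihood test and 50% with glmTreat. Leaving out 1 library gave 112 to 172 genes (75 to 116 higher, 32 to 56 lower). DESeq2 called 181 (135 higher, 46 lower). No value of a called gene reversed, 583 of 2496 values of single genes lost their call, and 66 of the 148 genes kept theirs without each single library (41 higher, 25 lower).

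Replicate numbers are not stated to mark a shared day or batch. Deviations of same-numbered libraries correlated at 0.215, 0.084, and 0.275, and those of unlike numbers at −0.251 to 0.031. Each library correlated best with its own number, and the column headers number the libraries of both groups alike. The fit behind the 148 genes took no pairs, and whether the numbers mark a shared harvest was not tested. With the replicate block, 168 genes were called in the 6 libraries alone, against 75 there without the block. In 24 libraries 152 genes were called with the block, which followed the replicate numbers of the labels. The header numbers run differently in the other groups. Of the 168 and 152 genes, 122 and 143 were among the 148.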
